A study of Homo sapiens with 2 samples.

Results

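The genes examined were 10 well-known genes that the Ewing sarcoma fusion protein EWSR1-FLI1 raises: NR0B1, NKX2-2, STEAP1, PRKCB, GLI1, SOX2, SOX6, BCL11B, VRK1 and LIPI, out of 20098 annotated protein-coding genes. Their MYBL2 peaks were taken from a window that held 1000 bp either side of any annotated transcription start site (TSS), the gene body and 100 kb on each side. These windows held 337 of 66954 deposited peaks.

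The peaks came from chromatin immunoprecipitation followed by sequencing (ChIP-seq) in A673, an established Ewing sarcoma cell line that carries the fusion, grown without any treatment named in the sample labels. The samples were 1 library of the MYBL2 immunoprecipitate and 1 library of input chromatin of the same wild-type cells, sheared but not precipitated. The labels name an anti-MYBL2 antibody, and the methods describe it as one against the phosphorylated, activated form. No replicate was made, the cells are 1 line, and no sample without MYBL2 or without the fusion was compared, so nothing below is a test between conditions.

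EWSR1-FLI1 joins a transcriptional activation region of EWSR1 to the ETS DNA-binding domain of FLI1. Besides single ETS sites, it binds runs of tandem GGAA units, called GGAA microsatellites, and turns them into enhancers of genes that are silent in most tissues. MYBL2 is a MYB family transcription factor that works with the MuvB complex at genes of the late cell cycle. The question put to the list was where MYBL2 signal lay around genes that are known as outputs of the fusion.

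To show what GGAA repeats look like near these genes, the tract with the longest unbroken GGAA run of each window is printed from the GRCh37 reference genome. Where runs of the same length tied, as at PRKCB and SOX6, the one nearest to a peak is shown, and a further tract of these genes that lay beside or under a peak is added. The reference sequence need not be the allele that A673 carries. Runs of at least 4 tandem units are in capitals, 10 flanking bases are shown on either side, and the strand is the one that reads GGAA. Runs at most 50 bp apart were joined into 1 tract. The window of GLI1 held none.
NR0B1 (chrX:30328865-30328986, minus strand): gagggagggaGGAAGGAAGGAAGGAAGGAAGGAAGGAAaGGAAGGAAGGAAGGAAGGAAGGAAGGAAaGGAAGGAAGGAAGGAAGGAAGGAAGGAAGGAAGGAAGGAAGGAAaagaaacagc
NKX2-2 (chr20:21556912-21557011, minus strand): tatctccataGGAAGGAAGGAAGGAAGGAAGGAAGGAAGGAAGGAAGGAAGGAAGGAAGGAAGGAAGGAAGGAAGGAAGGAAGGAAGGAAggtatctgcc
STEAP1 (chr7:89837657-89837805, plus strand): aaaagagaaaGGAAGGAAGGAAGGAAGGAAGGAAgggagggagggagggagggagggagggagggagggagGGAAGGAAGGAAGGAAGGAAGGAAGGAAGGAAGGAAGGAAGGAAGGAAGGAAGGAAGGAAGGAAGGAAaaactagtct
PRKCB, 16-unit run (chr16:23748846-23748961, minus strand): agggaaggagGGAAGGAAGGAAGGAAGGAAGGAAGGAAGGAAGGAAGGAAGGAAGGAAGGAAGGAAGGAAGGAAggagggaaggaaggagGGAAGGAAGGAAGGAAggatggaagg
PRKCB, intron (chr16:23914046-23914145, minus strand): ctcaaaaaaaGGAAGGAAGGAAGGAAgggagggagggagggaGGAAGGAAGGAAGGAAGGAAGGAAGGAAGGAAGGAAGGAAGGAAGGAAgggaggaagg
SOX2 (chr3:181391394-181391465, plus strand): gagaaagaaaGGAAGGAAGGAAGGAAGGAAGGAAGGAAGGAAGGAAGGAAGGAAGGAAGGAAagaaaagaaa
SOX6, 16-unit run (chr11:16395359-16395442, plus strand): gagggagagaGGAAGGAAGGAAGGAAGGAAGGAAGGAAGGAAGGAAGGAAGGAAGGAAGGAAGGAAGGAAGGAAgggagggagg
SOX6, intron (chr11:16371212-16371314, plus strand): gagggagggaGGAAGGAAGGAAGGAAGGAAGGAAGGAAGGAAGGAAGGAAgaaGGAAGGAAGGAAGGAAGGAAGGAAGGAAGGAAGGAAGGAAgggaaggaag
BCL11B (chr14:99596893-99596956, plus strand): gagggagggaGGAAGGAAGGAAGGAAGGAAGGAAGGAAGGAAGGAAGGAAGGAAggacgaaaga
VRK1 (chr14:97235471-97235534, minus strand): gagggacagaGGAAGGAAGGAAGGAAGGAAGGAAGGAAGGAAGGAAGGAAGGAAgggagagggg
LIPI (chr21:15585603-15585666, minus strand): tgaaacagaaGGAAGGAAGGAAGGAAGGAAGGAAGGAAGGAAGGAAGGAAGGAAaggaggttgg

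Each peak carried a fold enrichment, the authors' ratio of the ChIP signal at the summit to the background that the peak caller set with the input. The list gives no total count per library. The number of overlapping ChIP fragments at a summit was recovered from the deposited values and ran from 12 to 123 in the windows, with a median of 19. The background there ran from 3.45 to 11.2 fragments. Intervals given after a fold enrichment are 95% Poisson intervals of the fragment count, and they cover counting error only. Over the windows the median fold enrichment was 3.73 and the median width 306 bp, close to 3.79 and 319 bp over all peaks. A fold enrichment of at least 5 was reached by 53 of the 337 window peaks.

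MYBL2 peaks lay at the promoters of 9 of the 10 genes. The exception was STEAP1. Among all protein-coding genes 59.4% had a promoter peak. The strongest promoter peaks of the 9 genes had fold enrichments with a median of 12.0, from 5.28 at PRKCB to 24.3 at VRK1, against a median of 8.67 over the protein-coding genes with a promoter peak. The share of 9 in 10 has a 95% exact binomial interval of 55.5 to 99.7%, which includes the share of all genes.

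The strongest promoter peak was that of VRK1, which encodes a nuclear serine/threonine kinase of chromatin and the cell cycle. Its fold enrichment was 24.3 (20.1 to 29.1) from 115 fragments, with the summit 2 bp from the outermost TSS and a width of 1163 bp. This value was above the strongest promoter peak of 96.7% of the protein-coding genes that had one.

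SOX6 encodes a transcription factor of cartilage and red cell development. Its strongest promoter peak had a fold enrichment of 21.6 (17.6 to 26.1) from 103 fragments. That peak also lay at the promoter of C11orf58, the divergent neighbour, and the assignment between the genes cannot be told apart. The canonical SOX6 TSS lies further into the annotated locus and was 5663 bp from the nearest peak. SOX6 had a further promoter peak of its own, 3927 bp wide with a fold enrichment of 7.42 (5.37 to 10.0) from 41 fragments, whose summit lay 532 bp past an alternative TSS.

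At BCL11B, a zinc finger transcription factor of T cell development, the promoter peak had a fold enrichment of 15.5 (12.1 to 19.6) from 68 fragments and a width of 4220 bp. The summit lay 77 bp past the outermost TSS, in the 5′ UTR. SOX2, a transcription factor of pluripotent and neural progenitor cells, had a promoter peak of 14.4 (11.1 to 18.3) from 63 fragments with its summit 38 bp into the 5′ UTR. SOX2 lies inside the long non-coding RNA gene SOX2-OT, and the same peak touched a promoter of that gene.

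NR0B1 encodes an orphan nuclear receptor that acts mainly as a corepressor and is among the best studied targets of the fusion. Its window held a single peak, 7556 bp wide (chrX:30320988-30328543), which covered 100% of the gene and reached past its TSS. The fold enrichment of 12.0 (9.19 to 15.5) from 58 fragments belongs to the summit, which lay 822 bp past the 3′ end of the gene and 5104 bp from the nearest TSS. The value is therefore not a measure of the promoter itself, and by summit position NR0B1 had no promoter peak.

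NKX2-2, a homeodomain transcription factor of the ventral neural tube, had the widest promoter peak of the 10 genes. It spanned 14766 bp (chr20:21489391-21504156), covered 100% of the gene and took in the promoter of the antisense gene NKX2-2-AS1. Its fold enrichment was 11.3 (8.72 to 14.4) from 63 fragments, with the summit in a coding exon 635 bp past the TSS.

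The other promoter peaks were weaker. GLI1, the zinc finger transcription factor at the end of the Hedgehog pathway, had 4 promoter peaks. The strongest, at 6.53 (4.50 to 9.18) from 31 fragments, lay in an intron 1465 bp from the nearest TSS and also touched the promoter of another annotated gene. The GLI1 peak nearest to the outermost TSS, 168 bp before it, had 4.75 (3.08 to 7.03). LIPI, a phospholipase gene whose transcript is otherwise found mainly in testis, had a promoter peak of 6.08 (4.49 to 8.07) from 46 fragments that was 7004 bp wide. With a promoter window of 5000 bp before to 1000 bp after a TSS, the strongest peak of LIPI was the one at the promoter of RBM11, at 9.53, above the GLI1 value. PRKCB, encoding protein kinase C beta, had 5 promoter peaks over its 11 TSSs, the strongest at 5.28 (3.46 to 7.76) from 24 fragments, 208 bp before the outermost TSS.

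The order of the strongest promoter peaks was VRK1, SOX6, BCL11B, SOX2, NR0B1, NKX2-2, GLI1, LIPI and PRKCB. Poisson intervals of every pair of neighbours in that order overlapped. The intervals of VRK1 and BCL11B did not overlap, nor did those of LIPI and NKX2-2, nor those of SOX6 and NR0B1. The NR0B1 value belongs to a summit past the 3′ end of the gene. By summit position, or with the outermost or canonical TSS alone, GLI1 had 4.75 and came last, after PRKCB at 5.28.

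**Figure D1:**
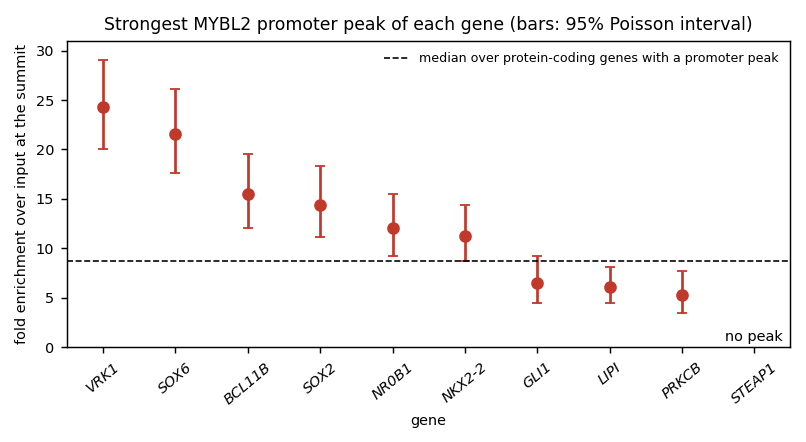
Fold enrichment over input (linear axis from 0) of the strongest MYBL2 promoter peak of each gene, with bars for the 95% Poisson interval of the fragment count and a dashed line at the median of 8.67 over protein-coding genes with a promoter peak. VRK1 at 24.3 and SOX6 at 21.6 lead, GLI1, LIPI and PRKCB lie under the line, and STEAP1 has no promoter peak.

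STEAP1 encodes a cell surface protein of the STEAP metalloreductase family. No base of its body lay under a peak, and its canonical TSS was 10433 bp from the nearest peak. Just past its 3′ end there were weak peaks, with summits 112 bp and 1024 bp beyond the gene and fold enrichments of 2.44 (1.38 to 4.05) and 4.39 (2.80 to 6.61). The strongest peak of the window lay at the promoter of the neighbouring STEAP2, another member of the family, 46665 bp past the 3′ end of STEAP1, with a fold enrichment of 10.6 (7.96 to 13.7) from 53 fragments. The CpG observed/expected ratio in the 500 bp either side of the STEAP1 TSS was 0.809, within the range of the other genes.

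That ratio ran from 0.511 at GLI1 to 1.03 at VRK1 in the genes other than LIPI. LIPI had the lowest, at 0.128, and yet carried a promoter peak 7004 bp wide.

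The sequence at the summit of the strongest promoter peak is shown next where it lies outside untranslated regions, since the factor's binding site would be sought there. Each line holds the bases within 50 bp of the summit from GRCh37, on the strand of the gene, with matches to the motifs searched in capitals. For VRK1 the window was shortened to the part before the first exon.
VRK1 (chr14:97263593-97263640, plus strand): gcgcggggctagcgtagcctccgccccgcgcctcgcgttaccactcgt
NR0B1 (chrX:30321451-30321551, minus strand): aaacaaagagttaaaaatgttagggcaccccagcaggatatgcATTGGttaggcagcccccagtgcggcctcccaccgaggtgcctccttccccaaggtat
NKX2-2 (chr20:21494017-21494117, minus strand): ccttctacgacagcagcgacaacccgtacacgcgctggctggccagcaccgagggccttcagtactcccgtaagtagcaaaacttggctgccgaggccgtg
GLI1 (chr12:57855711-57855811, plus strand): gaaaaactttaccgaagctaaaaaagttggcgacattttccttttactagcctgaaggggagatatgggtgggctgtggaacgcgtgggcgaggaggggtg
LIPI (chr21:15582582-15582682, minus strand): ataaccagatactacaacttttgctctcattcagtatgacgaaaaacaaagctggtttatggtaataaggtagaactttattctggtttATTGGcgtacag
PRKCB (chr16:23847046-23847146, plus strand): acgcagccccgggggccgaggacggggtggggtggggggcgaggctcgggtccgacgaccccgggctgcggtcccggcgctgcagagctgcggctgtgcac

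Motifs were sought on both strands in the full windows of 50 bp either side of the 9 summits. The CCAAT box (CCAAT), the site of NF-Y, was within the windows of LIPI, NR0B1 and VRK1, the last in the exon part that is not printed. It was within 10.4% of the 22943 windows of all promoter peaks. The CHR element (TTTGAA), the site of the MuvB complex, was at SOX2 alone, against 5.90% of all. None of the 9 windows held the MYB site TAACNG (7.69% of all), the ETS core CCGGAAGT (1.77%), a pair of tandem GGAA units (GGAAGGAA, 1.14%) or an E2F site (TTTGGCGC, TTTGCCGC, TTTCCCGC or TTTCGCGC, 1.14%). A missing match says only that these letters were not within these windows. Of the 9 strongest peaks at no promoter, those of SOX2 and STEAP1 held the CHR element, against 11.04% of all 44011 peaks at no promoter. None of the 9 held another of these motifs, of which the MYB site was in 11.4% and the CCAAT box in 14.4% of all.

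Several promoter peaks were broad. A promoter peak of at least 3000 bp, a width chosen after the values were seen, was found at 5 of the 10 genes, NR0B1, NKX2-2, SOX6, BCL11B and LIPI, against 2.49% of protein-coding genes. The median of the widest promoter peak was 3927 bp over the 9 genes and 904 bp over all protein-coding genes with one. At SOX6 the widest and the strongest promoter peak were different peaks. Breadth and height did not go together at VRK1 and LIPI, and their relation over the genes was not measured. VRK1, with the highest fold enrichment, had a widest promoter peak of 1163 bp, and LIPI, with one of the lowest, had 7004 bp. With canonical TSSs only, the count was 4, since the broad SOX6 peak lies at an alternative TSS.

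**Figure D2:**
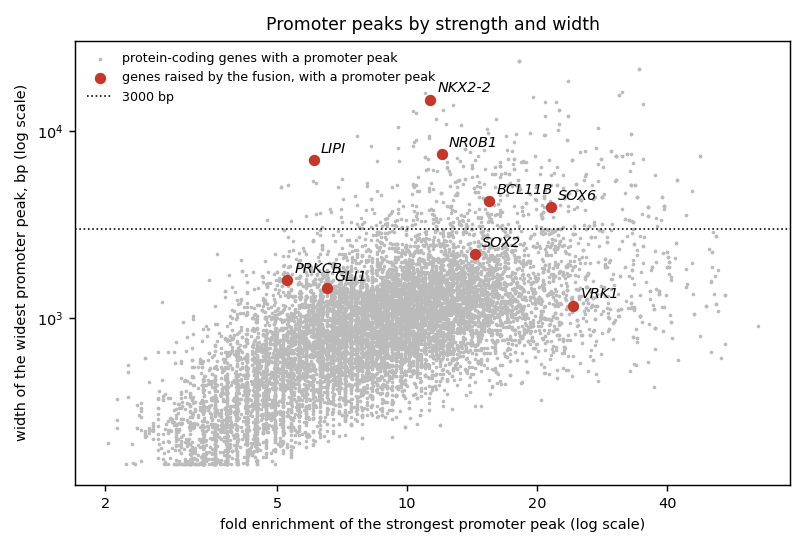
Fold enrichment of the strongest promoter peak (x axis, log scale) against the width in bp of the widest promoter peak (y axis, log scale) for protein-coding genes with a promoter peak (grey) and the 9 genes with one (red), with a dotted line at 3000 bp. NKX2-2, NR0B1, LIPI, BCL11B and SOX6 lie above the line, and VRK1 lies far to the right at 1163 bp.

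Joining peaks at most 1000 bp apart lengthened some of these domains. The promoter stretch of NKX2-2 ran over 27050 bp in 5 peaks that covered 95.7% of it (chr20:21477867-21504916), and reached past the gene on both sides. At BCL11B the stretch ran over 25555 bp in 13 peaks, from before the TSS into the first part of the gene. The LIPI stretch ran over 25174 bp in 12 peaks and took in the divergent gene RBM11, another gene raised by the fusion. Such stretches of at least 10000 bp were found at 3 of the 10 genes, against 1.99% of protein-coding genes.

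SOX2 was covered in a smaller stretch of 8521 bp in 7 peaks, which held 71.9% of the gene under a peak. NR0B1 had the 7556 bp peak alone. PRKCB, GLI1, SOX6 and VRK1 had promoter stretches between 1999 and 5539 bp, above the median of 1206 bp for protein-coding genes with a promoter peak.

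Most window peaks lay away from promoters. Of the 337, 62 were at a promoter of some gene and 275 at none (81.6%, 95% exact binomial interval 77.0 to 85.6%), against 65.7% of all peaks. Peaks of 1 gene body are not independent, and BCL11B gave 89 of the 275. Without BCL11B the share was 75.6% (69.7 to 80.8%), and without GLI1, where 13 of 40 peaks were at no promoter, it was 88.2%. The median density over the 10 windows was 75.1 peaks per Mb, against 29.7 per Mb over the windows of all protein-coding genes. Pooled over 3.55 Mb the windows held 94.8 peaks per Mb, and 75.7 without BCL11B. Density was uneven, from 4.87 per Mb at NR0B1 to 300.4 per Mb at BCL11B. BCL11B held 91 of the window peaks, PRKCB 58, LIPI 44, SOX6 41, GLI1 40 and VRK1 35, against 11 at STEAP1, 9 at NKX2-2, 7 at SOX2 and 1 at NR0B1.

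The body of BCL11B was tiled from end to end. It held 86 peaks in its 102911 bp, between 2.47 and 102.2 kb from the TSS, and peaks covered 54.7% of it. Their fold enrichments were modest, from 2.43 to 7.82 with a median of 4.04, and neighbouring peaks were a median of 363 bp apart. The strongest, at 7.82 (5.54 to 10.7) from 36 fragments, lay in an intron, 2472 bp past the TSS. The density of the window was above that of 99.6% of protein-coding genes.

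LIPI and VRK1 carried a thinner series. LIPI had 32 body peaks from 2.29 to 5.05 in fold enrichment, a median of 1047 bp apart. VRK1 had 29, from 2.39 to 6.22, and the last of them lay 91.4 kb from the outermost TSS of a gene 157.5 kb long. That last peak was also the strongest, at 6.22 (4.48 to 8.41) from 40 fragments.

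PRKCB had 46 body peaks along its 384.6 kb. The strongest lay in an intron at chr16:23911681-23913996, 65570 bp past the outermost TSS, with a fold enrichment of 10.6 (7.87 to 14.0) from 48 fragments. The interval did not overlap that of the promoter peak, 3.46 to 7.76. The highest fold enrichment of PRKCB thus lay inside the gene and not at its promoter.

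SOX6 had 25 body peaks over 773.1 kb, of which a single one reached a fold enrichment of 5. It lay in an intron near the 3′ end at chr11:16023153-16023914, 737500 bp past the outermost TSS and 13235 bp past the nearest annotated SOX6 TSS. With a fold enrichment of 19.0 (15.8 to 22.8) from 117 fragments and a width of 762 bp, it was the strongest peak at no promoter in any of the windows and above 98.9% of all peaks. All other SOX6 body peaks were under 5. Its sequence within 50 bp of the summit is printed, on the minus strand of the gene, beside those of the strongest PRKCB and STEAP1 peaks at no promoter, with motif matches in capitals.
SOX6 (chr11:16023588-16023688, minus strand): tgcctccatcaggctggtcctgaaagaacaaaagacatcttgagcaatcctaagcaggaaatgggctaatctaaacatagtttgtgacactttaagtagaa
PRKCB (chr16:23912824-23912924, plus strand): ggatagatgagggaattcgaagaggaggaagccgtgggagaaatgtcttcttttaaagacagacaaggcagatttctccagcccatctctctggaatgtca
STEAP1 (chr7:89837888-89837988, plus strand): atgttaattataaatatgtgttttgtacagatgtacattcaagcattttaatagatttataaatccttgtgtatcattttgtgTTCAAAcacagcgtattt

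At no promoter, NKX2-2 had a peak of 10.6 (7.79 to 14.0) from 46 fragments, 4483 bp wide, whose summit lay 4561 bp past the 3′ end. In the other windows such peaks were weaker. The strongest in the LIPI window, 6.60 (4.86 to 8.79), lay 17015 bp before the LIPI TSS, within RBM11. One of 6.07 (4.04 to 8.78) lay in the 3′ UTR of SOX2. In the GLI1 window it was 5.83 (3.94 to 8.33), 58305 bp past the 3′ end of GLI1 and beside a promoter peak of MBD6. In the STEAP1 window it was 4.68 (2.98 to 7.04), 43795 bp past the 3′ end of STEAP1 and near the STEAP2 promoter. NR0B1 had none.

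In the GLI1 window the strong signal belonged to neighbours. Of its 40 peaks, 23 were at promoters of other genes. The highest, at 24.2 (20.2 to 28.9) from 123 fragments, lay at the promoters of DDIT3, a stress-response transcription factor, and MBD6. A peak of 20.7 (17.1 to 24.7) lay at the promoters of DCTN2 and KIF5A, and one of 15.4 (12.2 to 19.2) at those of ARHGAP9 and MARS1. The intervals of all 3 lay above the interval of the strongest GLI1 peak, 4.50 to 9.18. In the LIPI window the strongest peak was that of RBM11, a splicing regulator, at 9.53 (7.20 to 12.4) and 8175 bp wide.

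**Figure D3:**
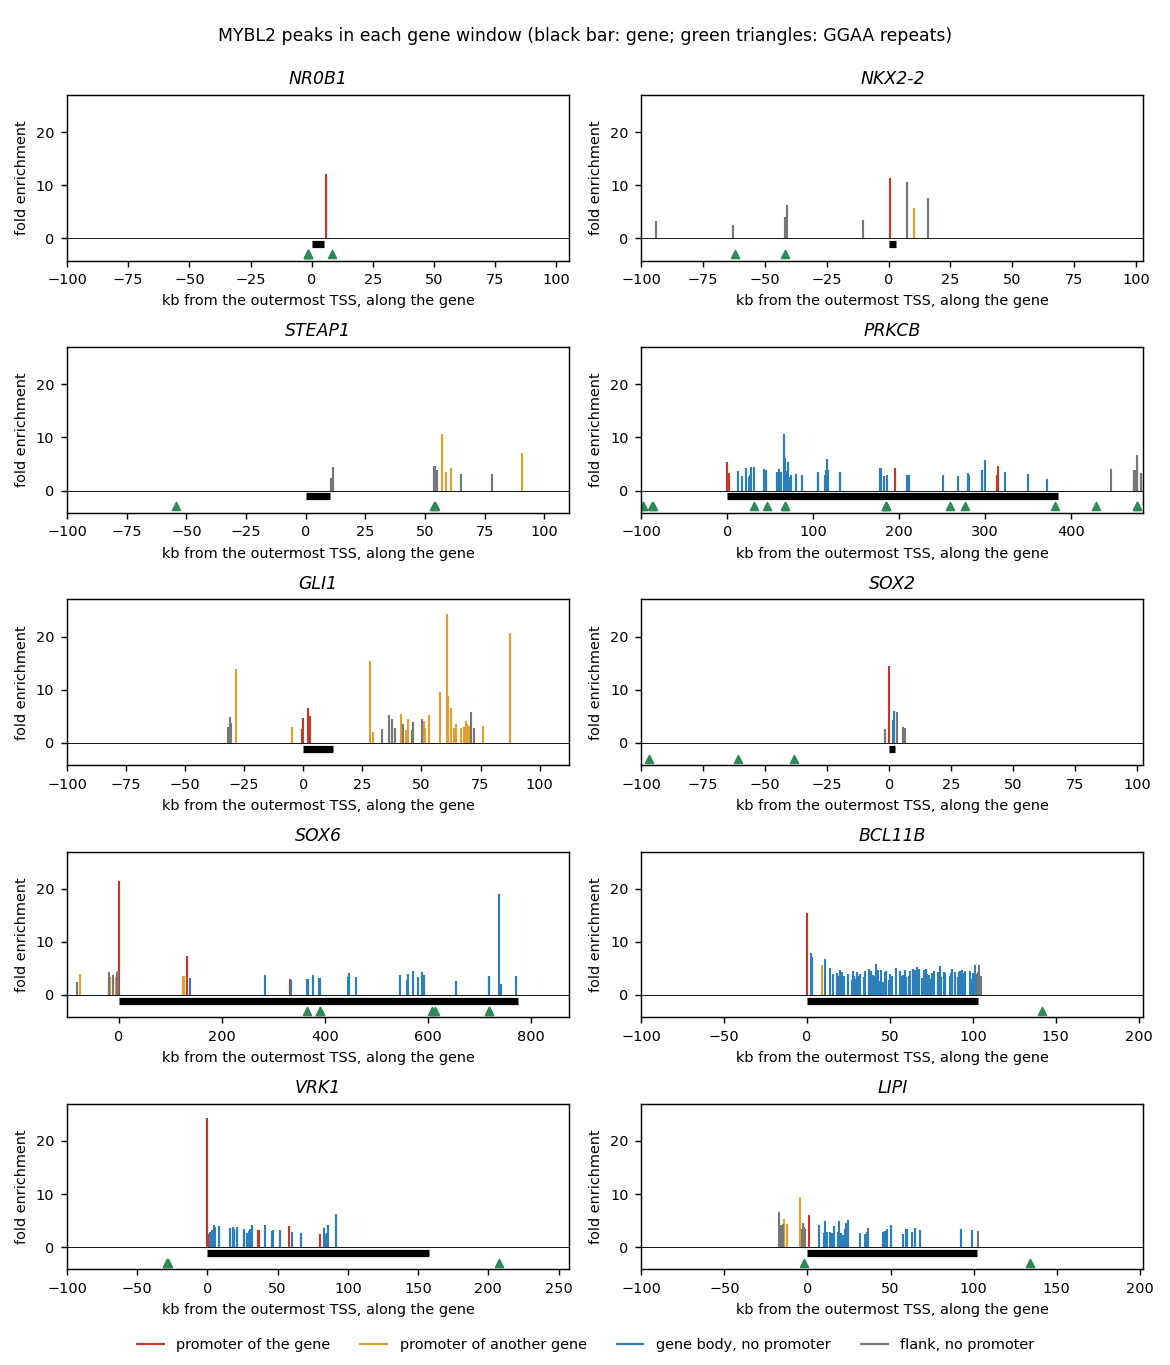
Fold enrichment (y axis) of every MYBL2 peak at the distance in kb of its summit from the outermost TSS, counted along the gene (x axis), in the window of each of the 10 genes, with colours for the class of peak, a black bar for the gene and green triangles for GGAA repeats of at least 4 units. VRK1 and SOX6 show a high promoter peak, BCL11B a body tiled by low peaks, SOX6 the single intronic peak of 19.0, and STEAP1 an empty gene body.

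GGAA repeats were compared with the peaks because the fusion is known to bind such repeats. Whether it binds the repeats of these windows was not measured here. The windows held 43 runs of at least 4 units, in 9 of the 10 windows. Of these runs, 4 lay under a peak, in whole or in part (9.30%, 95% exact binomial interval 2.59 to 22.1%), against 2.33% of the 16275 such runs in the genome. With runs under a peak or within 500 bp of a peak edge, a distance chosen after the values were seen, the count was 19 of 43 (44.2%, interval 29.1 to 60.1%), against 6.84% in the genome. The density of peaks in the windows, a median of 75.1 per Mb against 29.7, moves with this count, and its part in it was not tested.

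Of the 34 joined tracts, 13 were under or within 500 bp of a peak, against 6.49% of the 13559 such tracts in the genome. Of the 13, 5 lay between peaks on both sides. How often tracts elsewhere in the genome lie so was not counted, so this number has no comparison. The printed PRKCB intron tract sat in the gap between 2 peaks. The peak 60 bp to its left had a fold enrichment of 10.6 and was the strongest of that gene, and the peak 70 bp to its right had 6.19. The printed LIPI tract lay 2358 bp before the LIPI TSS, toward RBM11, with a peak of 3.80 at 44 bp on the one side and a peak of 4.52 at 27 bp on the other.

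The printed STEAP1 tract, 53961 bp past the STEAP1 TSS and close to the STEAP2 promoter, lay between a peak of 4.65 at 22 bp and a peak of 4.68 that reached over its last 6 bp. At NKX2-2 a run of 9 units, 41781 bp before the TSS, lay between a peak of 6.29 at 177 bp and a peak of 4.09 at 19 bp. At these loci the peaks lay beside the repeat, and the repeat itself, save those 6 bp at STEAP1, lay outside the called peaks.

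Tracts wholly under a peak were the 20-unit run of NKX2-2, under a weak peak of 2.46 (1.67 to 3.50), and a 9-unit run beyond PRKCB, under a peak of 6.74 (4.59 to 9.58) whose summit lay 92728 bp past the 3′ end of that gene. The printed SOX6 intron tract had 24 of its 83 bp under a peak of 3.26. Reads of low mapping quality were removed before the peaks were called, and how many reads within repeats that took was not tested.

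The NR0B1 tract, with 25 units in 3 runs and single bases between them, lay 1418 bp before the TSS. It was 332 bp outside the edge of the 7556 bp peak and not under any peak. Other long repeats were far from any peak. The 13-unit run of SOX2 was 36208 bp from the nearest, the 11-unit run of BCL11B 36854 bp, the 11-unit run of VRK1 27886 bp and the printed 16-unit run of PRKCB 45363 bp.

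**Figure D4:**
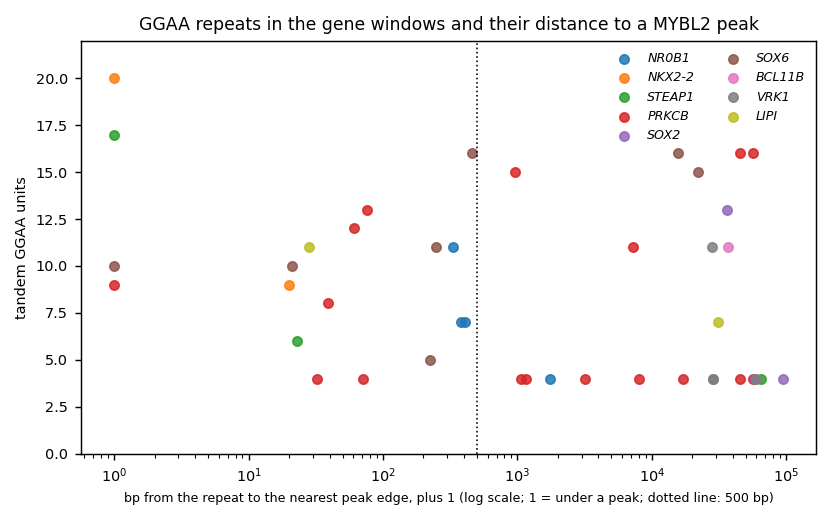
Number of tandem GGAA units (y axis) of each of the 43 runs in the windows against the distance in bp from the run to the nearest peak edge, plus 1 (x axis, log scale, where 1 is a run under a peak), coloured by gene, with a dotted line at a distance of 500 bp. The 19 runs at or left of the line belong to NR0B1, NKX2-2, STEAP1, PRKCB, SOX6 and LIPI.

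A list of other genes that the fusion raises and one of genes that it lowers, both from general knowledge, were set beside these genes. Expression was not analysed here, so the direction under the fusion is background. Among 24 other genes raised by the fusion, 21 had a promoter peak (against 59.4% of protein-coding genes), with none at CCK, EGR2 and CALCB. The median fold enrichment of their strongest promoter peaks was 10.6, from 4.06 at UPP1 to 34.5 at CCND1. Promoter peaks of at least 3000 bp were found at 6 of them, against 2.49% of protein-coding genes. These were CCND1 (21426 bp), NPY1R (12565 bp), CAV1 (12052 bp), RBM11 (8175 bp), ABHD6 (4809 bp) and FEZF1 (3550 bp). A stretch of at least 10000 bp was found at 8, against 1.99% of protein-coding genes. RBM11 shares its peak with the LIPI window, and its stretch is the one already counted for LIPI. AURKB, among the 24, was named a direct MYBL2 target in the paper from this same ChIP, so its peak was known beforehand. The list also holds MYBL2 itself.

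Among 8 genes that the fusion lowers, 6 had a promoter peak (against 59.4% of protein-coding genes), with none at IGFBP3 and DKK1. The median of the 6 was 5.67, from 3.70 at LOX to 7.75 at CDKN1A. None of the 8 genes had a promoter peak of at least 3000 bp or a stretch of at least 10000 bp. Among all protein-coding genes the shares were 2.49% and 1.99%. With shares this low, finding none among 8 genes does not set them apart. The median share of the gene body under a peak was 16.3% for the 10 genes, 18.8% for the other raised genes, 4.09% for the lowered genes and 0.880% for all protein-coding genes. The lists are short, were written with earlier results of these data known, and their differences were not tested.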

How the data were processed

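Single-end reads of 1 MYBL2 ChIP and 1 input library of A673 cells were aligned by the authors to hg19 with Bowtie2 (2.1.10), filtered on mapping quality, and peaks were called against the input with MACS2 (2.0.10). Versions are those of the submitters' processing notes. The deposited list gives each peak's score, which is 10 times its −log10 q without decimals. It also gives a linear fold enrichment ratio of pileup over background, and the −log10 p and −log10 q of the authors' caller. The deposited summit offset is a position in bp. What an additional cleaning of the list removed is not given in the sources used here.

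Coordinates are hg19, counted from 1, and 0 peaks lay beyond a GRCh37 chromosome end. The GENCODE annotation lifted to GRCh37 gave 193738 TSSs on 23 chromosomes, in 20098 protein-coding and 18592 lncRNA genes. A peak was at a promoter when 1 of its bases lay within 1000 bp of any TSS. The whole-number pileup and background that solve both the fold enrichment and the −log10 p of a peak were recovered with scipy 1.17.1. In −log10 p the solution missed by no more than 2.51e-05, and the second-best whole number by 0.089 or more. The steps were tested on simulated data. Sequences were read with pysam 0.24.0.

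All 10 genes were named, each with its strongest promoter peak, its strongest peak at no promoter and, where it held the strongest peak of the window, a neighbour. The genes, lists and comparisons were chosen with earlier results of these data known. Further sets, such as the peaks of at least 3000 bp, the stretches and the 500 bp distance, were chosen after the values were seen. With 1 library a group no test between samples was made. Shares have exact binomial intervals at 95%. Alternatives changed the peak threshold, the promoter window, the TSS set, the flank and the repeat length.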

Additional observations from a re-analysis of the deposited data

How the results depend on the processing

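No paired analysis was possible because ChIP and input were 1 library apiece. The canonical TSS, the other widths, the distance to a peak edge, the joined tracts, the stretches and leaving out a gene were chosen after the values were seen. STEAP1 had no promoter peak under any of the 7 alternatives run, and the count of genes with one was 8 or 9. It was 8 by summit position, without NR0B1 (58.6% of all protein-coding genes), and 8 with canonical TSSs, without SOX6 (56.6%). It was 9 at a fold enrichment of at least 5 (49.6%) and with the outermost TSS (53.2%). In these last settings the share of all genes lay below the interval of 9 in 10, 55.5 to 99.7%. In the other alternatives with a count of 9 it lay within that interval. The median fold enrichment of the strongest promoter peaks stayed between 11.7 and 12.8. With a width of at least 5000 bp, 3 genes had a broad promoter peak (1.01% of all genes).

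The number of window peaks was 166 at −log10 q of at least 5 and 53 at a fold enrichment of at least 5. The share at no promoter was then 75.9% and 50.9% (53.7% and 32.6% of all peaks), 89.5% in gene bodies and promoters alone, 68.5% (52.7% of all) in the window of 5000 bp before to 1000 bp after a TSS and 92.3% (78.6% of all) with the outermost TSS. Leaving out 1 gene gave 75.6% without BCL11B and 88.2% without GLI1, the lowest and highest values. Runs of GGAA under a peak numbered 2 of 43 with −log10 q of at least 5 (2.00% in the genome), 1 of 43 with fold enrichment of at least 5 (1.19%), 2 of 32 with a flank of 50 kb and 1 of 17 in gene bodies and promoters (2.33% for both). Within 500 bp of a summit there were 15 (5.06% in the genome), and within 500 bp of a peak edge 19. Of the 8 lowered genes, 3 kept a promoter peak with fold enrichment of at least 5, against 49.6% of all protein-coding genes. The causes were not tested beyond what each filter removes. The counting error is wide at the median of 19 fragments, how depth set which weak peaks were called was not tested, and 1 library gives no replicate error.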

Other observations

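Across the genome the share of GGAA runs near a MYBL2 peak rose with the length of the run, a comparison chosen after the values of the 10 windows were seen. Of the 10200 runs of 4 to 5 units, 3.93% (95% exact binomial interval 3.56 to 4.33%) were under or within 500 bp of a peak. The share was 7.39% (6.36 to 8.53%) of the 2328 runs of 6 to 8 units, 10.7% (9.36 to 12.1%) of the 2045 runs of 9 to 12 units and 18.9% (17.1 to 20.9%) of the 1702 runs of at least 13 units. Under a peak the shares were 1.17%, 2.15%, 3.52% and 8.11%. In the windows of the 10 genes, 12 of 21 runs of at least 9 units were that near, against 14.4% of such runs in the genome. Of the shorter runs, 7 of 22 were, against 3.93% of genome runs of 4 to 5 units and 7.39% of those of 6 to 8. The part of the higher peak density of the windows in these counts was not tested. Runs of 1 tract are not independent of each other.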
